A study of Rattus norvegicus with 12 samples.

Results

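The distal convoluted tubule (DCT) is the short stretch of the nephron that follows the thick ascending limb (TAL) and leads into the connecting tubule (CNT). Its cells take up sodium and chloride from the urine through the thiazide-sensitive cotransporter Slc12a3, and they take part in the handling of magnesium and calcium. Salt uptake by this segment is known for its bearing on blood pressure and on how much sodium reaches the collecting system, where principal cells (PC) exchange sodium for potassium and intercalated cells (IC) handle acid and base.

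The DCT nuclei described here are those that the authors placed in the low-level cluster named DCT, and nuclei of the separate mixed cluster named DCT/CNT were left out. They number 10279 of the 217132 nuclei of the series, or 4.73%. The name was not checked against its marker gene, Slc12a3, because counts per gene were not analysed here. For each nucleus the table gives the rat and group, the UMIs (unique molecular identifiers, 1 for each captured transcript molecule), the expressed genes, the mitochondrial UMIs in percent, scores of the cell cycle, the clusters and a place in the authors' embedding, a map that places nuclei with like transcripts near each other.

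The study set ZSF1 rats, a strain with leptin receptor mutations (ZSF1-LeprfaLeprcp/Crl) whose obese animals develop diabetes and kidney disease, against lean rats of that strain, and asked how the kidney responded to 2 kinds of drug that act on soluble guanylate cyclase (sGC). All 12 rats were male, with 3 rats in each group. Obese rats were dosed for 12 weeks from 13 to 14 weeks of age, so that they were 25 to 26 weeks old at the end. The obese group received vehicle, the obese + sGCact group received 2 daily doses of 3 mg/kg of the activator runcaciguat (BAY 1101042), and the obese + sGCstim group received 1 daily dose of 3 mg/kg of the stimulator BAY 1165747. The lean rats were not treated, so lean and obese rats differed in dosing as well as in genotype. The drugs differed in their daily number of doses, so a difference between them is not one at a matched dose. Each library came from 10 to 30 mg of frozen kidney, and the part of the kidney in that piece is not given in the sources used here.

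The libraries differed in ways that bear on every value below. Between 10488 and 43484 nuclei were retained per rat, where the protocol states that 10000 nuclei were loaded, and the highest number came from the obese rat RK9_4. Proximal tubule nuclei made up between 32.6% (RK46_4) and 92.1% (RK9_4) of the nuclei of a rat. In RK7_4 and RK9_4 of the obese group and RK61_4 of the sGCstim group, 31.2% of the DCT nuclei had over 5% mitochondrial UMIs, against 0.153% in the other 9 rats, and the fitted differences below are given without these 3 rats as well. RK16_4 is then the only obese rat, so those differences that involve the obese group rest on a single obese animal. The files name no batch. Between any pair of rats at most 2 DCT nuclei shared a barcode.

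The DCT cluster was filled by every rat. The lean rats gave 606, 884 and 738 DCT nuclei (RK1_4, RK3_4 and RK5_4), the obese rats 266, 361 and 1251 (RK7_4, RK9_4 and RK16_4), the sGCact-treated rats 1310, 878 and 1295 (RK43_4, RK45_4 and RK46_4) and the sGCstim-treated rats 799, 1370 and 521 (RK57_4, RK58_4 and RK61_4). No rat gave more than 13.3% of the cluster. By number of nuclei DCT ranked 7 among the 25 clusters. Of its neighbours along the nephron, TAL was larger (17538 nuclei), CNT/PC close in size (9963) and DCT/CNT smaller (5450).

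The cluster was compact in the embedding and nearly the same in both of the authors' finer annotations. Of the 30 nearest nuclei of a DCT nucleus, 95.4% on average were DCT nuclei, 3.61% were DCT/CNT nuclei and 0.378% were TAL nuclei. In 292 DCT nuclei (2.84%) fewer than 50% of these neighbours were DCT. In the intermediate annotation, 10101 of the 10279 (98.3%) were again called DCT, 176 were called DCT/CNT and 2 were called proximal tubule. The cluster names were made by the authors from the same data as the embedding, so these shares describe the annotation and test nothing.

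**Figure D1:**
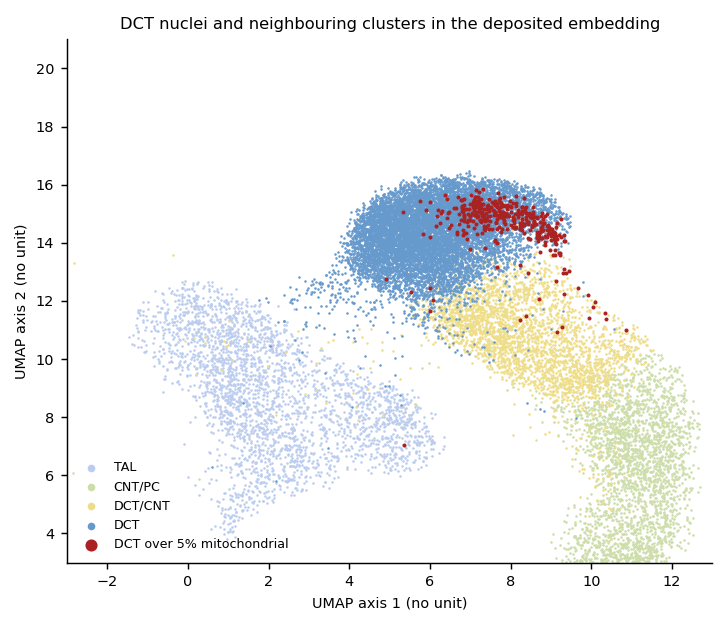
Embedding of DCT nuclei (blue) with 3000 nuclei drawn at random from each of TAL, DCT/CNT and CNT/PC. Axes have no unit, red points are the 372 DCT nuclei with over 5% mitochondrial UMIs, and 471 points, 17 of them DCT nuclei, lie outside the frame. DCT borders on DCT/CNT, and the red points gather on the side of higher values of axis 1.

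The first comparison asked whether obesity or either drug changed how many of the kidney's nuclei were DCT nuclei. As a share of all nuclei of a rat, DCT made up 3.63%, 5.83% and 4.36% in the lean rats and 2.52%, 0.830% and 9.54% in the obese rats (RK7_4, RK9_4 and RK16_4). The obese rats thus lay on both sides of the lean rats, with RK9_4 lowest and RK16_4 above all 3 of them. Under sGCact the shares were 6.17%, 4.06% and 12.3%, and under sGCstim they were 6.47%, 11.2% and 2.24%. The highest Wilson 95% interval of a single rat ran from 11.7% to 13.0% (RK46_4) and the lowest from 0.749% to 0.920% (RK9_4). These intervals cover counting error only, and the rats of each obese group differed by far more than that.

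The group means were 4.61 ± 1.12% in lean rats (SD, n = 3), 4.30 ± 4.62% in obese rats (SD, n = 3), 7.53 ± 4.31% under sGCact (SD, n = 3) and 6.63 ± 4.48% under sGCstim (SD, n = 3). On the log odds scale the obese minus lean difference was -0.51 (SE 0.65, 95% interval -1.92 to 0.90), and it did not pass the test (limma, adjusted p = 0.574, and exact two-sided permutation test of the shares, p = 1). Its direction depended on the scaling: the difference was 0.22 with the centred log-ratio, 0.22 with edgeR and TMM scaling and 0.49 with nuclei outside the proximal tubule as the denominator, and it was 0.10 without RK9_4 and 0.80 without RK7_4, RK9_4 and RK61_4, none of which passed either. In this comparison 3 of the 25 clusters, or 12.0%, passed an adjusted p under 0.05 and 7 passed an unadjusted p under 0.05. The median of all 25 clusters moved by -0.66, and DCT stood at place 11 from the highest, between the endothelial cluster GEC(Reln+) at -0.44 and the stromal cluster Fib/Peri at -0.60.

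The treated groups had higher mean DCT shares than the obese group, and neither difference passed the test. The sGCact minus obese difference in log odds was 0.95 (SE 0.65, 95% interval -0.46 to 2.36, limma, adjusted p = 0.496), with the treated rat higher in 7 of the 9 pairs of rats. For sGCstim it was 0.72 (SE 0.65, 95% interval -0.69 to 2.13, limma, adjusted p = 0.677), with the treated rat higher in 6 of 9 pairs. With 1 rat left out the sGCact difference ran from 0.34 without RK9_4 to 1.60 without RK16_4 (limma, adjusted p = 0.0524), and the sGCstim difference from 0.11 without RK9_4 to 1.38 without RK16_4 (limma, adjusted p = 0.0993). Without RK7_4, RK9_4 and RK61_4 these differences turned to -0.36 and -0.12, with RK16_4, the obese rat of the highest share, the only obese rat in the fit. Between the drugs the difference, sGCact minus sGCstim, was 0.23 (95% interval -1.18 to 1.63, limma, adjusted p = 0.964), and it was -0.24 without RK61_4 (also with RK7_4 and RK9_4 left out) and -0.10 without RK46_4. Of the 25 clusters, 0 (0%) passed the limma test in each of these 3 comparisons, and 0 had an unadjusted p under 0.05. By edgeR with TMM scaling 0 passed as well, with 6, 2 and 1 at an unadjusted p under 0.05 for sGCact minus obese, sGCstim minus obese and sGCact minus sGCstim.

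The shares moved with the number of proximal tubule nuclei in the library. Over the 12 rats the DCT share of all nuclei and the proximal tubule share were negatively related (Pearson's r = -0.729, permutation p = 0.00304, adjusted over 4 relations p = 0.00984, Spearman's rho = -0.748, permutation p = 0.00744, adjusted p = 0.0297). Without RK7_4 and RK9_4, the rats farthest from the median proximal tubule share, r was -0.587. Both shares have the same denominator, so a negative relation is partly built in. With DCT taken as a share of nuclei outside the proximal tubule the relation was r = -0.246 (permutation p = 0.446, rho = -0.301, permutation p = 0.345), and -0.161 without those rats.

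The share of DCT among nuclei outside the proximal tubule leaves those nuclei out of the denominator. DCT made up 5.92%, 10.7% and 7.04% of these nuclei in the lean rats, 10.4%, 10.4% and 15.3% in the obese rats, 14.3%, 13.5% and 18.3% under sGCact and 13.5%, 20.2% and 7.59% under sGCstim. The lean rat RK3_4 lay above both RK7_4 and RK9_4, and 7 of the 9 obese and lean pairs had the obese rat higher (exact two-sided permutation test, p = 0.3). All 3 sGCact-treated rats lay above all 3 lean rats, a contrast that was not tested. RK61_4 lay among the lean rats and apart from the other rats of its group.

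**Figure D2:**
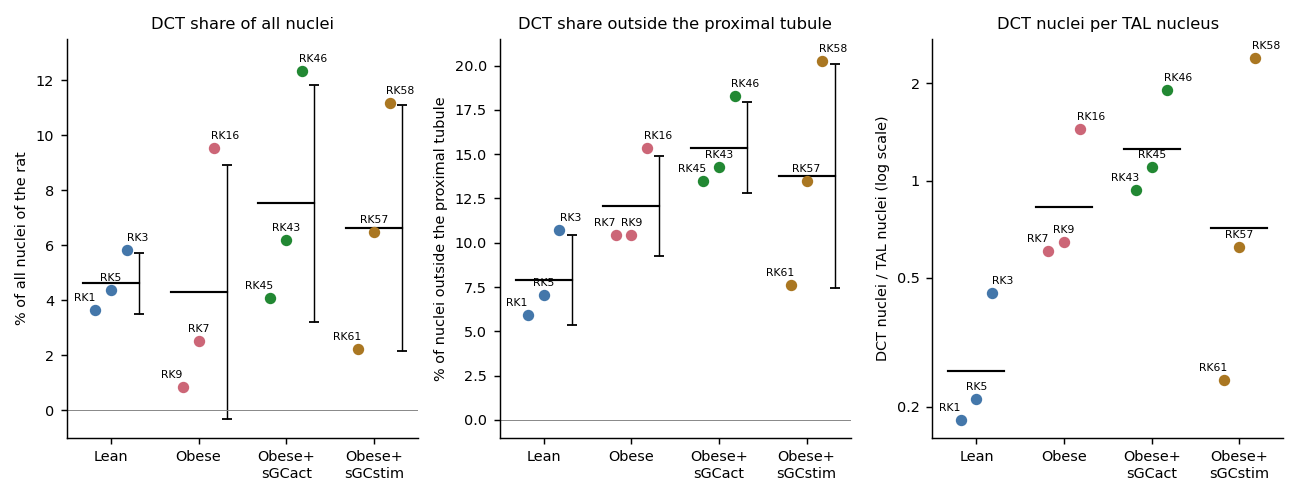
DCT nuclei of each rat as a percentage of all its nuclei (left), as a percentage of its nuclei outside the proximal tubule (middle) and per TAL nucleus (right, log scale), with the suffix of rat names left out. Points are rats, horizontal lines are group means (geometric means on the right) and vertical bars are ± 1 SD (n = 3). In the left plot the obese rats run from 0.830% to 9.54%, and in the right plot the 3 obese rats lie above the 3 lean rats.

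DCT was next set against each of the other 24 clusters, 8 of which are proximal tubule clusters. A ratio to a cluster outside the proximal tubule does not depend on how many proximal tubule nuclei a library holds. Against the TAL, which comes just before it along the nephron and dilutes the urine by salt uptake without water, there were 0.182, 0.449 and 0.211 DCT nuclei per TAL nucleus in the lean rats. The obese rats had 0.607, 0.646 and 1.45, so the lowest obese rat lay above the highest lean rat. The sGCact-treated rats had 0.936, 1.11 and 1.91, and the sGCstim-treated rats 0.623, 2.40 and 0.242, with RK61_4 inside the lean range.

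The obese minus lean difference in the natural log of DCT nuclei per TAL nucleus was 1.16 (SE 0.54, 95% interval -0.04 to 2.37), a 3.21-fold higher ratio. All 9 pairs of rats had the obese rat higher, and the exact two-sided permutation test gave p = 0.1, the smallest p that this design can give. Across the 24 ratios it did not pass (limma, adjusted p = 0.273), and its adjusted p ran from 0.102 to 0.531 over the alternatives. Without RK7_4, RK9_4 and RK61_4 the difference was 1.72, with RK16_4 the only obese rat in the fit. As a share of all nuclei, TAL made up 17.9 ± 4.24% in lean rats (SD, n = 3) and 4.01 ± 2.65% in obese rats (SD, n = 3). The DCT shares of these groups overlapped. Both shares depend on how many proximal tubule nuclei a library holds, and the part of each cluster in the ratio was not tested.

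Of the 24 ratios, 1 (4.17%) passed in obese against lean rats, that of DCT to PTnov2, a cluster with a proximal tubule name, and 4 had an unadjusted p under 0.05. The median over the 24 differences was 0.22, and 14 were above 0. In the sGCact minus obese comparison 0 (0%) passed the limma test and 1 had an unadjusted p under 0.05. In the sGCstim minus obese and the sGCact minus sGCstim comparisons 0 (0%) passed and 0 had an unadjusted p under 0.05. For DCT nuclei per TAL nucleus the differences in natural log were 0.42 (SE 0.54, limma, adjusted p = 0.721) for sGCact minus obese, -0.15 (SE 0.54, limma, adjusted p = 0.908) for sGCstim minus obese, which turned to 0.13 without RK16_4 and 0.39 without RK61_4, and 0.57 (SE 0.54, limma, adjusted p = 0.952) for sGCact minus sGCstim. With RK7_4, RK9_4 and RK61_4 left out they were -0.14, -0.17 and 0.03.

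**Figure D3:**
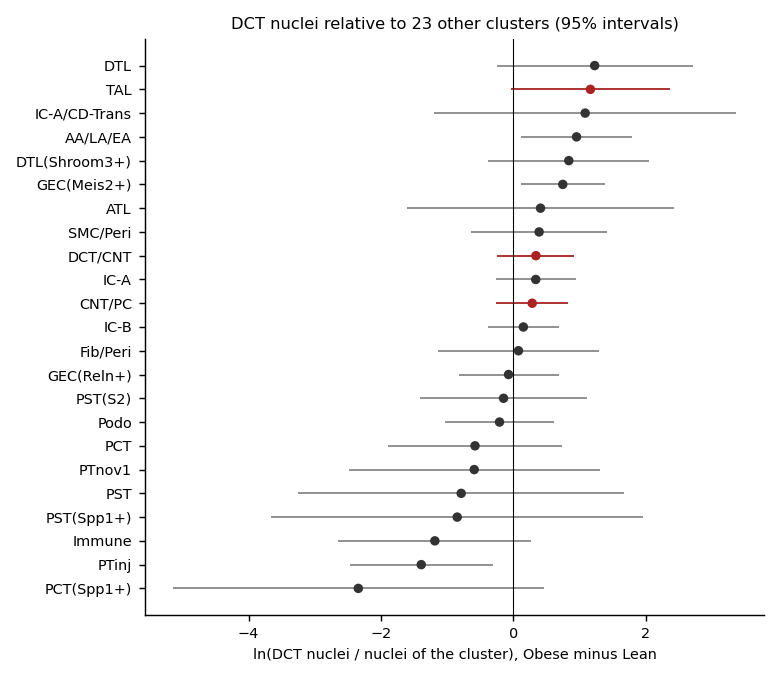
Obese minus lean difference in the natural log of DCT nuclei per nucleus of each of 23 other clusters, with limma 95% intervals over 3 obese and 3 lean rats. The neighbours TAL, DCT/CNT and CNT/PC are in red, values above 0 mean more DCT nuclei per nucleus of the cluster in obese rats, and PTnov2, at 5.75 and with no nucleus in the obese rats, is left out of the plot. TAL stands at 1.16, DCT/CNT at 0.34 and CNT/PC at 0.29.

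Against the segments that follow DCT the obese minus lean differences were smaller than against TAL. The median difference over the 24 ratios was 0.22, so small differences were not particular to these segments. The mixed cluster DCT/CNT stands between DCT and connecting tubule cells, and per nucleus of it there were 1.38, 2.29 and 1.39 DCT nuclei in the lean rats and 2.25, 2.44 and 2.23 in the obese rats. RK3_4 was the lean rat within the obese range. The sGCact-treated rats had 1.83, 1.60 and 1.85, all below the 3 obese rats, and the sGCstim-treated rats had 1.69, 2.03 and 3.43. The difference in natural log was 0.34 for obese minus lean (SE 0.26, 95% interval -0.24 to 0.92, limma, adjusted p = 0.526). For sGCact minus obese it was -0.27 (SE 0.26, 95% interval -0.85 to 0.31, limma, adjusted p = 0.707, exact two-sided permutation test, p = 0.1), and it was 0.06 among nuclei with at most 1% mitochondrial UMIs. For sGCstim minus obese it was -0.01 (95% interval -0.59 to 0.57, limma, adjusted p = 0.961) and for sGCact minus sGCstim -0.26 (95% interval -0.84 to 0.32, limma, adjusted p = 0.952), and with at most 1% mitochondrial UMIs these were 0.049 and 0.0064. Leaving out RK7_4, RK9_4 and RK61_4, the ratio to DCT/CNT differed by 0.31 for obese minus lean, -0.24 for sGCact minus obese, -0.18 for sGCstim minus obese and -0.05 for sGCact minus sGCstim.

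Per nucleus of CNT/PC, the cluster of connecting tubule and principal cells, DCT ran from 0.748 (RK5_4) to 1.41 (RK16_4) over the 12 rats. The lean rats had 0.756, 1.30 and 0.748 and the obese rats 0.982, 1.25 and 1.41, a difference of 0.29 in natural log (SE 0.24, 95% interval -0.26 to 0.83, limma, adjusted p = 0.541) that was -0.09 among nuclei with at most 1% mitochondrial UMIs. The sGCact-treated rats had 1.00, 0.882 and 1.06, and the sGCstim-treated rats 0.895, 1.17 and 1.13. Of these 6 rats, RK45_4 and RK57_4 lay below the lowest obese rat, and the differences from obese rats were -0.21 (95% interval -0.75 to 0.34, limma, adjusted p = 0.721) and -0.13 (95% interval -0.67 to 0.42, limma, adjusted p = 0.876). The sGCact minus sGCstim difference was -0.08 (95% interval -0.62 to 0.47, limma, adjusted p = 0.952). With at most 1% mitochondrial UMIs the sGCact minus obese difference turned to 0.063 and the sGCact minus sGCstim difference to 0.18, and with at most 5% the sGCact minus obese and sGCstim minus obese differences turned to 0.049 and 0.019. The ratio to CNT/PC without these 3 rats (RK7_4, RK9_4 and RK61_4) differed by 0.45 for obese minus lean, -0.37 for sGCact minus obese, -0.32 for sGCstim minus obese and -0.04 for sGCact minus sGCstim. Taken as a share of DCT, DCT/CNT and CNT/PC together, DCT made up between 32.8% (RK5_4) and 46.4% (RK16_4) of these nuclei in the 12 rats, a range narrower in proportion than that of its share of all nuclei. This share was 44.1 ± 3.09% in obese rats (SD, n = 3) and 38.6 ± 2.13% under sGCact (SD, n = 3), with no overlap between the 3 rats of each group (exact two-sided permutation test, p = 0.1), although with at most 1% mitochondrial UMIs the ratios of DCT to both DCT/CNT and CNT/PC turned to 0.055 and 0.063 in natural log for sGCact minus obese.

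The second comparison asked how many UMIs a DCT nucleus held. Over all rats a DCT nucleus held between 495 and 5925 UMIs, with a median of 1999. The median of a rat was 3401, 2545 and 1846 UMIs in the lean rats and 1454, 1362 and 1627 in the obese rats. The 3 obese rats lay below the 3 lean rats, RK16_4 and RK5_4 being closest. The sGCact-treated rats had 2299, 2132 and 2041, all above the obese rats, and the sGCstim-treated rats had 2021, 1841 and 1030, with RK61_4 the lowest of the 12.

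On the log2 scale the obese minus lean difference was -0.77 (SE 0.30, 95% interval -1.39 to -0.15), a fold of 0.587. The obese rat was lower in 9 of 9 pairs (exact two-sided permutation test, p = 0.1), and the unadjusted p was 0.0164, but over the 18 clusters with at least 20 nuclei in every rat the difference did not pass (limma, adjusted p = 0.0736). Without RK5_4 it was -0.99 and passed (limma, adjusted p = 0.0260). Relative to the other clusters of the same rat it was -0.23 (limma, adjusted p = 0.574), -0.43 with nuclei limited to 1% mitochondrial UMIs (limma, adjusted p = 0.368) and -0.47 with a limit of 5% (limma, adjusted p = 0.264). Without RK7_4, RK9_4 and RK61_4 it was -0.63, with RK16_4 the only obese rat in the fit. Of the 18 clusters 3 (16.7%) passed, all 18 differences were below 0 and their median was -0.45.

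Under sGCact DCT nuclei held 2157 ± 131 UMIs (SD of the rat medians, n = 3), against 1481 ± 135 in obese rats (SD, n = 3). In 9 of 9 pairs the treated rat was higher (exact two-sided permutation test, p = 0.1), the log2 difference was 0.54 (SE 0.30, 95% interval -0.07 to 1.16) and it did not pass (limma, adjusted p = 0.521), in a comparison where 1 of 18 clusters (5.56%) did. Among nuclei with at most 5% mitochondrial UMIs the medians overlapped, at 2158 ± 132 under sGCact (SD, n = 3) and 1832 ± 316 in obese rats (SD, n = 3), with RK9_4 at 2196. For sGCstim minus obese the difference was 0.08 (95% interval -0.54 to 0.70, limma, adjusted p = 0.959) and turned to -0.12 with that limit on mitochondrial UMIs. For sGCact minus sGCstim it was 0.46 (95% interval -0.16 to 1.08, limma, adjusted p = 0.709), the sGCact-treated rat being higher in 9 of 9 pairs (exact two-sided permutation test, p = 0.1). The log2 differences without RK7_4, RK9_4 and RK61_4 were 0.41 for sGCact minus obese, 0.25 for sGCstim minus obese and 0.16 for sGCact minus sGCstim. For sGCstim minus obese and sGCact minus sGCstim 0 of 18 clusters (0%) passed the limma test, with 1 and 0 at an unadjusted p under 0.05.

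DCT nuclei held more UMIs than the other nuclei of their own library in 12 of 12 rats. The ratio of the DCT median to the median of all other nuclei ran from 1.04 in RK61_4 to 2.31 in RK45_4, with a median of 1.21. It was also high in RK7_4 (1.88) and RK43_4 (2.12). The group means were 1.17 ± 0.0663 in lean rats (SD, n = 3), 1.53 ± 0.340 in obese rats (SD, n = 3), 1.87 ± 0.601 under sGCact (SD, n = 3) and 1.15 ± 0.0992 under sGCstim (SD, n = 3). The obese rat was higher than the lean rat in 8 of 9 pairs (exact two-sided permutation test, p = 0.2), opposite in direction to the -0.23 above, which was taken relative to the other clusters and not to the pool of all other nuclei. The obese rat was also higher than the sGCstim-treated rat in 8 of 9 pairs and the sGCact-treated rat higher than the sGCstim-treated rat in 8 of 9 (p = 0.2 each, exact two-sided permutation tests). The pool of other nuclei differed in make-up between rats. Proximal tubule nuclei were 69.9% of all nuclei in RK45_4, 75.8% in RK7_4 and 56.9% in RK43_4. They were also 70.6% in RK61_4, where the ratio was lowest, and 92.1% in RK9_4, where it was 1.51. Whether this make-up bears on the ratio was not tested. Against its neighbours DCT had the higher median in 10 of 12 rats against TAL, in 10 of 12 against CNT/PC and in 4 of 12 against DCT/CNT. The exceptions against TAL and CNT/PC were RK9_4, with 1362 UMIs per DCT nucleus against 2012 and 2036, and RK61_4, with 1030 against 1830 and 1531. The clusters were built from these transcripts, so the orders are descriptions and were not tested.

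**Figure D4:**
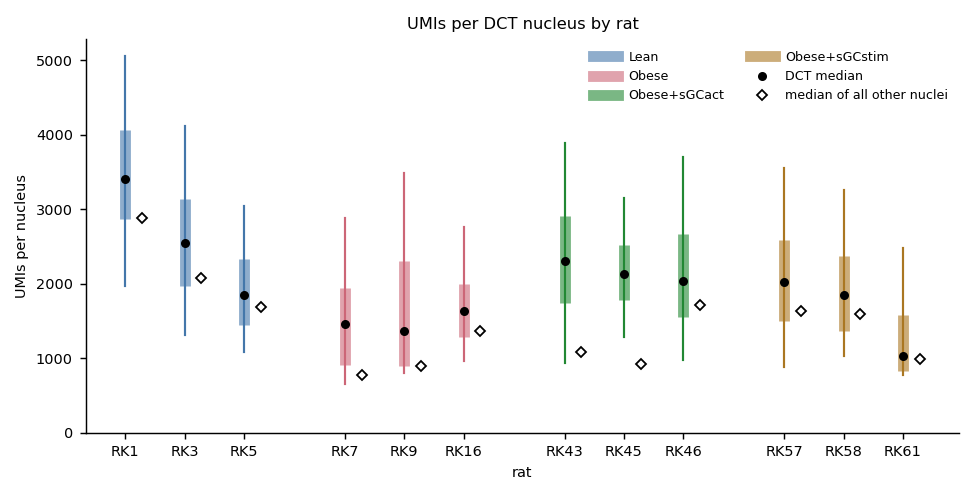
UMIs per DCT nucleus in each rat, with the median (black point), the middle 50% (thick bar) and the range from the 5th to the 95th percentile (thin line), beside the median of all other nuclei of that rat (open diamond). The black point lies above the diamond in all 12 rats, and the 3 obese rats lie between 1362 and 1627.

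Across the 12 rats the DCT median followed that of the other nuclei (Pearson's r = 0.814, permutation p = 0.00492, adjusted p = 0.00984, Spearman's rho = 0.664, permutation p = 0.0223, adjusted p = 0.0297). Without RK1_4 and RK7_4, the rats farthest from the median of the other nuclei, r was 0.543. Whether the lower UMIs of obese rats belong to DCT cells or to the libraries cannot be told apart here, because no library is named apart from its rat.

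The number of genes per DCT nucleus depends on its UMIs. The rat medians were 1765, 1442 and 1078 genes in the lean rats, 787, 771 and 1078 in the obese rats, 1284, 1113 and 1223 under sGCact and 1165, 1074 and 751 under sGCstim. RK5_4 and RK16_4 had the same median, so the lean and obese groups met at one value (exact two-sided permutation test, p = 0.2). The sGCact-treated medians all lay above the obese medians, with p = 0.1 in the exact two-sided permutation test. Among DCT nuclei with 1000 to 2000 UMIs, where depth differs less, the medians were 1089, 1104 and 895 in the lean rats, 822, 749 and 1016 in the obese rats, 1045, 999 and 1034 under sGCact and 1003, 862 and 922 under sGCstim. In this range the obese mean was 862 ± 138 genes (SD, n = 3) and the lean mean 1029 ± 117 (SD, n = 3), a difference of -167 genes that was within the spread (exact two-sided permutation test, p = 0.2), and the groups overlapped in every comparison with obese rats. Depth still differed within the range: the mean of the rat medians was 1451 UMIs in obese and 1595 in lean rats.

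The third comparison was of the mitochondrial percentage, the share of a nucleus's UMIs that come from genes of the mitochondrial genome, which lies outside the nucleus. Most DCT nuclei held almost none. Of the 10279, 4567 (44.4%) had no mitochondrial UMI, 9389 (91.3%) had at most 1%, 518 had over 1% and up to 5%, and 372 (3.62%) had over 5%. The median of a rat was 0.0376, 0.0525 and 0% in the lean rats, 0, 0.862 and 0.201% in the obese rats, 0.0510, 0 and 0% under sGCact and 0, 0 and 1.79% under sGCstim. Only RK9_4 and RK61_4 stood above 0.5%.

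No difference between groups in this median passed the test. On the scale of log2(percentage + 0.1), which understates changes of low values, the obese minus lean difference was 1.26 (SE 1.14, 95% interval -1.25 to 3.77, limma, adjusted p = 0.731). It was 0.44 without RK9_4 and 2.07 without RK7_4, and with the mean over nuclei or summed UMIs in place of the median it was 3.25 (limma, adjusted p = 0.158) and 2.83 (limma, adjusted p = 0.148), both with an unadjusted p under 0.05. The other differences were -1.42 for sGCact minus obese (95% interval -3.93 to 1.09, limma, adjusted p = 0.783), which was -0.60 without RK9_4, -2.23 without RK7_4 and -3.33 with the mean over nuclei (limma, adjusted p = 0.188), -0.21 for sGCstim minus obese (95% interval -2.72 to 2.31, limma, adjusted p = 0.911), which turned to 0.62 without RK9_4, and -1.21 for sGCact minus sGCstim (95% interval -3.72 to 1.30, limma, adjusted p = 0.710), which turned to 0.20 without RK61_4. Without RK7_4, RK9_4 and RK61_4 the differences were 1.23, -1.39, -1.59 and 0.20 in this order, with RK16_4 the 1 obese rat in the fit. In each of the 4 comparisons 0 of 18 clusters (0%) passed the limma test, with 1, 1, 1 and 0 at an unadjusted p under 0.05 in the same order. Over the 12 rats the DCT median and that of all other nuclei were related (Pearson's r = 0.790, permutation p = 0.0197, adjusted p = 0.0263, Spearman's rho = 0.692, permutation p = 0.0172, adjusted p = 0.0297). Without RK9_4 and RK61_4 r was 0.0645, so the Pearson relation rests on those rats, and rho without them was not computed. DCT had a lower median than all other nuclei in 10 of 12 rats and was equal in the rest. A low median was shared by its neighbours. Against TAL, DCT was lower in 8 rats and higher in 2, and against CNT/PC lower in 7 and higher in 2. Against DCT/CNT it was higher in 5 rats and lower in 1. Over all rats the median was 0% in DCT/CNT, 0.0388% in DCT, 0.0676% in CNT/PC and 0.0856% in TAL.

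DCT nuclei with over 5% mitochondrial UMIs came almost wholly from 3 rats, a threshold and a group of rats chosen after the values were seen. RK7_4 had 60 such nuclei (22.6% of its DCT nuclei, Wilson 95% interval 17.9 to 27.9%), RK9_4 had 156 (43.2%, 38.2 to 48.4%) and RK61_4 had 142 (27.3%, 23.6 to 31.2%). Together they held 358 of the 372 (96.2%). In the other 9 rats 14 of 9131 DCT nuclei were over 5%, and the highest share was 0.452% (RK3_4). The obese rat RK16_4 had 0.240%, although 15.3% of its DCT nuclei lay between 1% and 5%.

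These nuclei held few UMIs. Their median was 737 UMIs in RK7_4, 896 in RK9_4 and 823 in RK61_4, against 1737, 2452 and 1890 in the DCT nuclei of the same rats without any mitochondrial UMI. Their median number of genes was 495, 599 and 619, against 871, 1170 and 1059 in DCT nuclei with at most 1%. With at most 1% mitochondrial UMIs the DCT medians were 1716 UMIs in RK7_4, 2275 in RK9_4 and 1647 in RK61_4. Over all their DCT nuclei they were 1454, 1362 and 1030. The nuclei over 5% also lay near each other in the embedding. Of the 30 nearest DCT nuclei of such a nucleus, 23.2% on average were over 5% as well. Around DCT nuclei with at most 1% it was 2.73%, and over all DCT nuclei the share was 3.62%. The embedding and the mitochondrial percentage come from the same transcripts, so these values are a description without a test.

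The neighbouring segments of the same libraries held fewer of them. Of the 418 DCT/CNT nuclei of these 3 rats 1 was over 5%. In CNT/PC the shares were 3.32% (RK7_4), 1.74% (RK9_4) and 0% (RK61_4), the last with 0 of 461 nuclei. In TAL they were 10.5%, 15.7% and 1.30%. The type B intercalated cluster IC-B had 37.8% in RK61_4 (68 of 180 nuclei, Wilson 95% interval 31.0 to 45.0%) but 0.64% and 0.79% in RK7_4 and RK9_4, and it was singled out after its values were seen. Among the 24 clusters with nuclei in these 3 rats DCT ranked 5 by the share over 5% in these 3 rats, below 3 proximal tubule clusters and podocytes, with PTnov1 highest at 97.3%. Clusters and the mitochondrial percentage come from the same transcripts, so these orders are descriptions without a test.

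**Figure D5:**
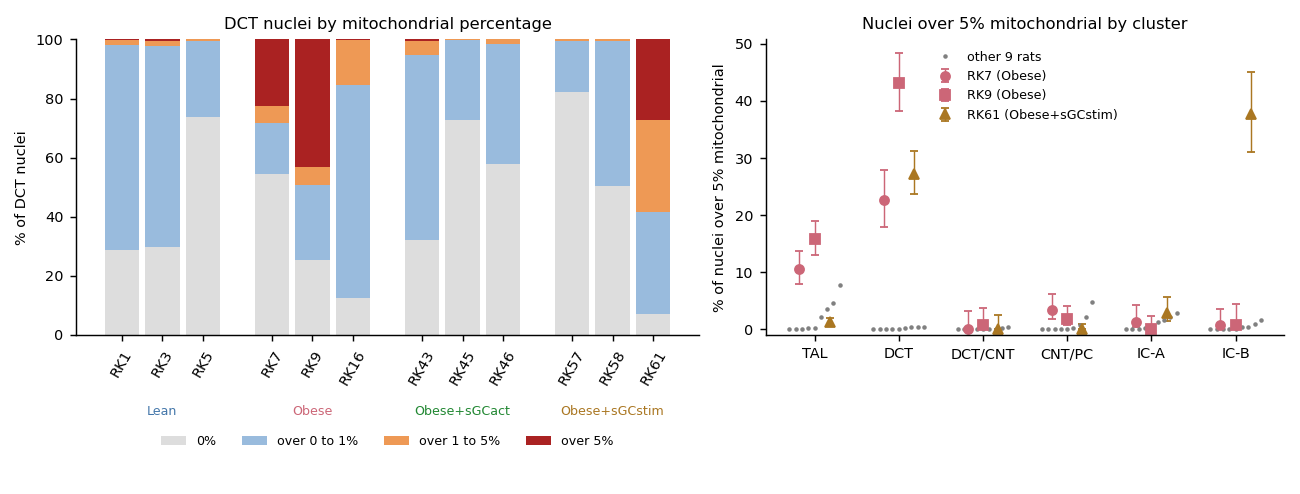
Left, percentage of the DCT nuclei of each rat by class of mitochondrial percentage. Right, percentage of nuclei over 5% mitochondrial in DCT and 5 other distal clusters, with Wilson 95% intervals for RK7_4, RK9_4 and RK61_4 and grey points for the other 9 rats, and in DCT those 3 rats stand at 22.6%, 43.2% and 27.3% while the others are at most 0.452%.

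The cell-cycle scores of DCT nuclei lay close to 0 in every rat. They are the authors' scores of S phase and G2M phase gene lists, and have no fixed range, so no fold is given. The mean S score was 0.0013 ± 0.0014 in lean rats (SD of the rat means, n = 3) and -0.0032 ± 0.0023 in obese rats (SD, n = 3), lower in 9 of 9 pairs (exact two-sided permutation test, p = 0.1). The sGCact-treated rats had -0.0029 ± 0.00037 (SD, n = 3) and the sGCstim-treated rats -0.00012 ± 0.0010 (SD, n = 3). The SD between the nuclei of a single rat was between 0.037 and 0.046, so the rat means differed by a small part of the spread between nuclei. The sGCact-treated rats lay below the sGCstim-treated rats in 9 of 9 pairs (exact two-sided permutation test, p = 0.1), a direction that turned when the median over nuclei replaced the mean, with a difference of 0.0018.

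The mean G2M score was -0.013 ± 0.0017 in lean rats (SD, n = 3), -0.0089 ± 0.0045 in obese rats (SD, n = 3), -0.015 ± 0.0018 under sGCact (SD, n = 3) and -0.0072 ± 0.00515 under sGCstim (SD, n = 3). The 3 sGCact-treated rats lay below all 3 obese and all 3 sGCstim-treated rats (exact two-sided permutation tests, p = 0.1 each). With the median over nuclei the separation from obese rats was lost, as RK7_4 (-0.0206) lay below RK45_4 (-0.0199) and RK46_4 (-0.0200). Among DCT nuclei in the UMI range used above for genes, both separations were lost. There RK45_4 had a mean of -0.0089, above RK7_4 (-0.0109), RK16_4 (-0.0127) and RK57_4 (-0.0111). The mean of the sGCact-treated rats stayed below those of both groups in each setting. The authors' phase calls placed between 33.5% and 41.3% of a rat's DCT nuclei in S and between 21.4% and 35.7% in G2M, the highest G2M shares being those of RK61_4 (35.7%) and RK9_4 (33.0%). Among all other nuclei of a rat the shares ran from 28.3% to 39.2% in S and from 25.6% to 42.5% in G2M, and the calls are no count of dividing cells. Against its neighbours, the DCT mean S score was below that of TAL in 12 of 12 rats, below that of CNT/PC in 11 of 12 and below that of DCT/CNT in 9 of 12.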

How the data were processed

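Kidney nuclei of 12 rats, 3 per group, were profiled by droplet-based single-nucleus RNA sequencing with UMIs. Per the study's methods and the submitters' processing notes, the authors aligned the reads to rn6 with Cell Ranger (version 6 in the notes, an earlier version in the methods), corrected ambient RNA, removed doublets, filtered nuclei on genes, UMIs and mitochondrial percentage, integrated the rats with batch correction and clustered them in Seurat. The table deposited by the authors gives 1 entry per nucleus. UMIs and genes per nucleus are deposited as counts, without normalization. Mitochondrial UMIs are deposited as a percent of the UMIs of the nucleus. The study's methods place the correction of ambient RNA before the rats were merged. UMIs and mitochondrial percentages may thus be what remained after it, and its bearing on them was not tested. S and G2M values are scores made by the authors, and cluster names, phases and coordinates are deposited as other values. No column of per-sample values was left out (0 unused).

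DCT nuclei were counted per rat. Groups were read from the table, with names identical to those of the labels, and no rat could be matched to a single sample entry. Shares were tested as log odds, with 0.5 nuclei added to the cluster and 1 to the total, over 25 clusters. Ratios of DCT to each of 24 other clusters were tested as natural logs with 0.5 added to both counts. Median UMIs (log2) and median mitochondrial percentage (log2 with 0.1 added) were tested over the 18 clusters with at least 20 nuclei in every rat. All used limma 3.58.1 in R 4.3.3 on 4 groups with the rat as replicate, Benjamini-Hochberg adjustment within a contrast and a threshold of 0.05. Genes and scores per rat were compared by exact two-sided permutation tests, whose smallest p with 3 rats a group is 0.1. Relations across rats used 100000 resamples and were adjusted over 4 relations. The limma step was tested on simulated data with independent normal noise and 1 spread for all clusters. The ratios share the DCT count and differ in spread, which that simulation does not cover.

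Alternatives were other scalings of the share (centred log-ratio, other denominators, edgeR 4.0.16), limits on UMIs, mitochondrial percentage and cluster size, pseudocounts of 0.01 and 1, means for medians, DCT joined with DCT/CNT, the compared groups alone, robust moderation and each rat left out. The limit of 5% mitochondrial UMIs, leaving out 3 rats and the intermediate annotation were added after the data were seen. The plan of tests did not list those of DCT as a share of DCT, DCT/CNT and CNT/PC together. Nor did it list those of the ratio of DCT UMIs to the UMIs of all other nuclei. The members, clusters and lists were chosen with earlier results of these data known. The clusters named are DCT and its neighbours TAL, DCT/CNT and CNT/PC, with the proximal tubule as 1 group. Others were named where they passed a test beside DCT or stood next to it in rank. Outside this rule, IC-A, IC-B and podocytes were shown or named for the share of nuclei over 5% mitochondrial UMIs.

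Retained nuclei held between 11898496 and 49272672 UMIs per rat, of which DCT nuclei held 21693895 over all rats. Values were computed in Python 3.11.15 with scipy 1.17.1, pandas 2.3.3 and numpy 2.4.6.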

Additional observations from a re-analysis of the deposited data

Results flagged for a closer look

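DCT nuclei relative to the proximal tubule cluster PTnov2 differed between obese and lean rats by 5.75 in natural log (limma, adjusted p = 0.000877 over 24 ratios), and it drew attention as the only ratio of DCT to another cluster that passed. The lean rats held 2228 DCT and 730 PTnov2 nuclei in all, a ratio of 3.05, and the obese rats held 1878 DCT nuclei and 0 PTnov2 nuclei. Set against a floor of 3 counts over the obese group the ratio there is 626, so that it was at least 205-fold higher than in lean rats, and the fitted value of 5.75 depends on the 0.5 nuclei added to each count. The DCT shares of these groups overlapped, and how much of the difference came from DCT or from PTnov2 was not tested. With at most 1% mitochondrial UMIs the ratio no longer passed. PTnov2 is left out where at least 20 nuclei in every rat are required. Under either setting 0 ratios passed.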

How the results depend on the processing

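Of 272 values under alternatives other than leaving out 1 rat, over 40 results, 241 kept their direction and their side of the threshold, and of 408 values with 1 rat left out 388 did. The rest are below, where no cause was tested.

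For the DCT share (log odds), obese minus lean was 0.22 with the centred log-ratio, 0.49 outside the proximal tubule, 0.22 with edgeR and TMM, 0.0012 with at least 1000 UMIs, 0.80 without RK7_4, RK9_4 and RK61_4, and from -1.17 to 0.10 with 1 rat left out, the highest without RK9_4. Of the 25 clusters 3 passed in obese minus lean by limma, 4 by edgeR with TMM and 1 by edgeR with total nuclei as library size. Without RK7_4, RK9_4 and RK61_4 the share difference was -0.36 for sGCact minus obese, -0.12 for sGCstim minus obese and -0.24 for sGCact minus sGCstim, while with 1 rat left out the first ran from 0.34 to 1.60 and the second from 0.11 to 1.38. The last ran from -0.24 to 0.61 with 1 rat left out, below 0 without RK46_4 or RK61_4.

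UMIs per DCT nucleus (log2) ran from -0.99 to -0.55 for obese minus lean with 1 rat left out, passing only without RK5_4 (limma, adjusted p = 0.0260, range 0.0260 to 0.574 over all alternatives). For sGCstim minus obese they were -0.041 with at most 1% and -0.12 with at most 5% mitochondrial UMIs, and from -0.10 to 0.39 with 1 rat left out, below 0 without RK57_4 or RK58_4. The mitochondrial percentage (log2) for sGCstim minus obese was 0.11 with a pseudocount of 1 and from -1.62 to 0.62 with 1 rat left out, above 0 without RK9_4, RK57_4 or RK58_4. For obese minus lean it ran from 0.44 without RK9_4 to 2.07 without RK7_4. For sGCact minus sGCstim it was 0.20 without the 3 rats and from -1.92 to 0.20 with 1 left out, highest without RK61_4.

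The number of clusters past the threshold against DCT, 1 in obese minus lean, was 0 with at most 1% mitochondrial UMIs and 0 with at least 20 nuclei in every rat, which drops PTnov2. It was 2 with at most 5% (PTnov1 added), 2 with the compared groups alone (PTinj added) and from 1 to 2 with 1 rat left out (PTinj added without RK61_4). In sGCact minus obese it was from 0 to 1 (PTinj without RK61_4, limma, adjusted p = 0.0456), and in sGCact minus sGCstim 1 with at least 1000 UMIs (DTL, limma, adjusted p = 0.0378).

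Log ratios of DCT to a neighbour, none of which passed, turned as follows. With at most 1% mitochondrial UMIs, CNT/PC was -0.091 in obese minus lean, 0.063 in sGCact minus obese and 0.18 in sGCact minus sGCstim, and DCT/CNT was 0.055 in sGCact minus obese, 0.049 in sGCstim minus obese and 0.0064 in sGCact minus sGCstim. With at most 5%, CNT/PC was 0.049 in sGCact minus obese, 0.019 in sGCstim minus obese and 0.030 in sGCact minus sGCstim, and DCT/CNT 0.15 in sGCstim minus obese. In sGCact minus sGCstim CNT/PC was 0.082 with at least 1000 UMIs and 0.0013 with DCT and DCT/CNT joined. TAL was -0.14 in sGCact minus obese without the 3 rats. In sGCstim minus obese TAL ran from -0.76 to 0.39 with 1 rat left out, above 0 at 0.13 without RK16_4 and 0.39 without RK61_4, and DCT/CNT from -0.22 to 0.14, above 0 without RK9_4 (0.02), RK57_4 (0.14) or RK58_4 (0.04).

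The S score difference was 0.0018 in sGCact minus sGCstim with the median over nuclei, and from -0.00065 to 0.0016 in sGCact minus obese with 1 rat left out, below 0 without RK7_4. The G2M score in sGCstim minus obese ran from -0.0011 to 0.0040, below 0 without RK16_4 (-0.00053) or RK61_4.

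No paired analysis was possible because the rats of the table carry no replicate numbers that groups share. With 3 rats a group, the 95% interval of the obese minus lean DCT share ran from -1.92 to 0.90 in log odds. How many libraries a rat had is not stated, and the p-values measure the spread between rats. Counting error matters little beside this, since the fewest DCT nuclei of a rat were 266. Differences in UMIs per nucleus could not be evened out by thinning without counts per gene. Limits on UMIs or mitochondrial percentage remove different shares of different libraries.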
